A study of Mus musculus with 6 samples.

Results

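The 6 tongue epithelium libraries of this series fell into a grouping that cut across genotype. WT 1, WT 2 and KO 2 formed 1 set of 3 libraries (the first set), and WT 3, KO 1 and KO 3 formed the other (the second set), so that all 6 of 6 libraries belong to it. The sets were chosen from the expression values themselves, on log2(normalised count + 1) of the 10987 genes that reached 10 in 3 or more libraries, out of 21778 genes above 0 in at least 1 library. Everything below about the difference between the sets is therefore a description, and no test was made across them.

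Each library came from the tongue of 1 mouse. WT mice carried floxed alleles of Ire1α (IRE1F/F), and KO mice were littermates that also carried K14CreERT2, a tamoxifen-inducible Cre recombinase driven by the promoter of keratin 14, which is active in basal keratinocytes. All mice, WT included, received tamoxifen daily for 4 days and were harvested on day 5. The mucosa was loosened with protease and collagenase for 10 min at 37 °C and peeled off, and its RNA was sequenced as tags from the 3′ end of each mRNA (QuantSeq). The labels give no age, sex, cage, dissection day or library batch, so the sets could not be matched to any of these. The first set holds 2 WT mice and 1 KO mouse and the second 1 WT and 2 KO mice, so the set difference and the KO difference share 4 of 6 libraries on the same side and are not independent.

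The dorsal tongue is covered by a stratified squamous epithelium in which basal cells divide and their daughters move outward while switching to keratins and envelope proteins of differentiated cells. Its filiform papillae are small keratinised cones that use hair-type keratins and keratin-associated proteins, as the hair shaft does. Ire1α is a sensor in the endoplasmic reticulum (ER) membrane that splices the mRNA of Xbp1, and the resulting transcription factor raises genes for ER translocation, folding and degradation.

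The recovered totals were 4606309 to 6286153 reads per library and overlapped between the sets. The value of 1 read after the authors' normalisation was 0.862 to 0.942 in the first set and 0.953 to 1.31 in the second, so this scaling did not overlap. Counting error alone allows 3 reads behind a 0, which are worth 2.59 to 3.92 on the normalised scale. Keratin 13, the main keratin of differentiated tongue cells, was abundant in every library at 324353, 228829 and 234931 against 247992, 328701 and 258363 (first set, in the order WT 1, WT 2 and KO 2, against second set, in the order WT 3, KO 1 and KO 3, as in all values below). The Y-linked gene Ddx3y was at 279.9, 0.873 and 278 against 227, 247 and 2.86, so that each set held 2 libraries with the transcript and 1 without it, and this marker of sex did not follow the sets.

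The sets were separated by a limited number of large differences and a large number of small ones. A gene was called separated when the 3 values of 1 set did not overlap the 3 of the other and the mean log2(value + 1) differed by at least 1. By this rule 301 genes were higher in the first set (2.74% of 10987) and 51 were lower (0.464%). With no limit on size, 1325 genes (12.1%) lay entirely higher and 1349 (12.3%) entirely lower, and the median difference over all genes was -0.01. Scaling every library to the same total moved that median to 0.13 and gave 408 separated genes higher (3.71%) and 18 lower (0.164%), and 2001 (18.2%) and 615 (5.6%) genes without overlap. The lopsided split among large differences, more genes higher than lower, was present under both scalings, whereas the even split among small differences was not.

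Of all sums of squares around the gene means, 32.0% lay between the sets and 34.4% between WT and KO. Spearman correlations across genes were 0.944 to 0.968 for library pairs of the same set (median 0.956) and 0.916 to 0.962 for pairs across the sets (median 0.944), so the ranges overlapped. Inside each genotype the sign of these differences is fixed by the choice of genes, and each comparison rests on a single library on one side (WT 3 or KO 2), so the sizes are only described. Of the 301 genes higher in the first set, 248 differed by at least 1 between the mean of WT 1 and WT 2 and the value of WT 3, 249 between KO 2 and the mean of KO 1 and KO 3, and 201 in both. The median difference of these genes was 1.50 within WT and 1.51 within KO. Of the 51 lower genes, 36, 24 and 10 did so, with medians of -1.26 and -0.96. None of the 352 separated genes passed the test of KO against WT (limma with Benjamini-Hochberg adjustment, 198 of 10987 genes or 1.8% called), although 23 and 2 of them had an unadjusted p under 0.05. edgeR on the recovered reads called 0 of them and DESeq2 called 4 (Gja1, H2-D1, H2-T22 and Sec61b, chosen after their values were seen). Since each set holds both genotypes, a gene that separates the sets has a wide spread inside WT and KO.

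Adhesion and surface proteins were among the largest differences. Cdh7 (GRCm38 chr1:109982431-110140157), a classical cadherin, was at 8208, 2371 and 3480.0 against 264, 787 and 602. Ntm, a membrane-anchored adhesion protein of the immunoglobulin family known from neurons, was at 4790.4, 1390.1 and 3295 against 269, 295 and 415. The lowest library of the first set lay above the highest of the second by a wide gap for both genes, and the differences on the log2(value + 1) scale were 3.02 for Cdh7 (pooled SD within the sets 0.87) and 3.12 for Ntm (0.69). Trhde, a surface peptidase that inactivates thyrotropin-releasing hormone, was at 1389, 357 and 751 against 96.6, 71.5 and 160.1. Pde1c, a calcium-dependent cyclic nucleotide phosphodiesterase, was at 1998, 769 and 1107 against 149, 225 and 185. In all 4 genes WT 1 was the highest of the 6 libraries and WT 2 the lowest of the first set. Cdh23, another cadherin (1583, 789.7 and 861 against 201, 271 and 147), and Cdh18 (66.9, 17.5 and 35.3 against 2.61, 3.25 and 7.62) had differences of 2.35 and 2.81. Cdh1, Cdh3, Cdh4 and Cdh13 were not separated. Thus 3 of the 7 cadherins kept were separated higher (2.74% of all genes), and the median of the 7 was 0.05. Of the 3, Cdh18 passed the filter on expression only through the first set, where it was high. Cdh18 was near the read floor in the second set, so its difference rests on few reads there. Cdh23, Cdh18 and the family were chosen after their values were seen.

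The largest difference by the naming rule was in Ctnnd1 (p120 catenin, which holds cadherins at the membrane), at 663, 318 and 402 against 40.5, 43.3 and 44.8, a difference of 3.33 (SD 0.39). The second set was tight here, within 40.5 to 44.8, while the first set ranged more widely. Ldb1, a bridging cofactor of LIM-domain transcription factors, was at 152, 54.1 and 74.1 against 3.92, 15.2 and 10.5. Apba3, an adaptor protein, was at 131, 69.8 and 88.8 against 10.4, 9.75 and 12.4. These 2 genes were close to the read floor in the second set, so their differences (3.15 and 3.00) rest on few reads there. Bambi, a decoy receptor that dampens TGF-β and BMP signals, was at 846, 358 and 446 against 99.3, 41.2 and 83.9 and differed by 2.85. The remaining genes of the 12 highest were Plac8 (2.97), Afm (2.84), the RNA gene Snhg8 (2.55) and Arl5c (2.48). Plac8 was unequal inside the first set, with 69.7, 334 and 47.4 against 19.6, 7.58 and 12.4, so that WT 2 alone carried much of its difference.

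**Figure D1:**
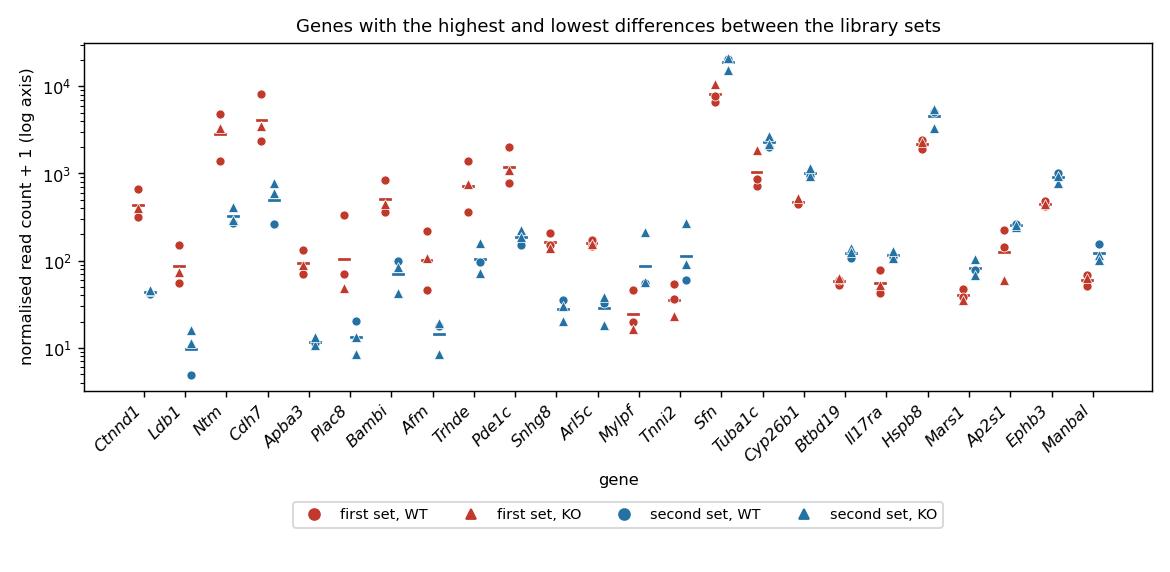
Normalised read count + 1 (log axis) of the 12 highest and 12 lowest separated genes by the naming rule. Points are libraries, circles WT and triangles KO, red the first set and blue the second, and bars are the mean on the log scale. The Cdh7 values of 2371 to 8208 in the first set lie above 264 to 787 in the second, and the Sfn values show the opposite order.

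Among differentiation genes of the tongue surface, Krt10 was higher and Krt4 lower in the first set. Krt10 (chr11:99385254-99389364), a keratin of skin-type suprabasal cells, was at 15655, 7995 and 6645 against 2744, 2738 and 2435, a difference of 1.84 (SD 0.47). The second set lay within 2435 to 2744, and its highest library was far below the lowest of the first set. The mucosal keratin Krt4, in contrast, was at 180369, 137785 and 112709 against 184083, 240543 and 189854, lower in the first set without overlap (difference -0.53). Among 34 keratins kept, only Krt10 and Krt222 (3.06) were separated, 9 were higher at all and the median difference was -0.31. Krt1, another keratin of the suprabasal list, overlapped between the sets, and its difference was below that median. Krt222 was at 66.9, 26.2 and 56.0 against 2.61, 6.50 and 5.72. It reached the filter value of 10 only in the first set and was near the read floor in the second. The suprabasal and cornified cell list had 1 of 30 genes separated (Krt10), 2 entirely higher (Krt10 and Sprr3, 0.59) and 5 entirely lower, among them the protease Klk7 (4008, 3511 and 5345 against 7204, 5605 and 7056, -0.64) and Lce3a (-0.36). Its median was -0.17 and the basal list's -0.25, with 0 of 18 basal genes separated, against -0.01 over all genes. The basal list was highest in KO 1 (mean deviation 0.47), and without KO 1 its median was 0.08. The shares entirely higher (12.1%) and lower (12.3%) of all genes stand against 2 and 5 of 30 suprabasal genes. Of the 30, 12 lay entirely lower without WT 1 and 11 without KO 2. These shares of all genes come from all 6 libraries and are no background for counts without a library. Here and below, such counts rise by construction, since fewer libraries have to be ordered.

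Several transcription factors and cofactors known from hair and papilla differentiation were higher in the first set. Hr (hairless, a corepressor of the hair cycle) was at 549, 252 and 380.1 against 86.2, 104 and 84.8, Dlx3 at 758, 508 and 598 against 231, 215 and 226 and Msx2 at 96.1, 25.3 and 25.9 against 5.22, 3.25 and 7.62. Dlx3, a homeobox factor of keratinocyte and hair differentiation, had the tightest sets of these, with a difference of 1.45 (SD 0.21) against 2.03 (0.41) and 2.74 (0.84). Hopx, a homeodomain-only protein of late epidermal differentiation, was at 3685, 1786 and 2409 against 964, 938 and 979.7. The other hair regulators did not follow: Foxn1 (326, 258 and 334 against 294, 264 and 279), Hoxc13 (382, 277 and 419 against 308, 362 and 301) and Lef1 (169.6, 147 and 57.7 against 151, 61.8 and 71.5) overlapped between the sets. These 7 genes were picked after their values were seen, so they show that single regulators differed and say nothing of a hair program as a whole.

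The keratin-associated proteins, which cross-link hair keratins, were mostly higher in the first set. Of 19 Krtap genes kept, 18 were higher in the first set (5424 of 10987 over all genes) and 5 were separated (2.74% over all genes), with a median of 0.45. Of the 5, 4 were among the 7 genes kept of the Krtap4 family. Krtap4-1 was at 3400.3, 1528 and 3444 against 1235, 625 and 1194 and Krtap4-8 at 1793, 735 and 1736 against 483, 335 and 586, differences of 1.43 and 1.53. Krtap4-2 and Krtap4-6 differed by 1.37 and 1.58, and Krtap4-7, at 3259.9, 1852 and 3947 against 2817, 1562 and 2878, overlapped. In each separated Krtap4 gene WT 2 was the lowest of the first set and KO 1 the lowest of the second. The Krtap4 genes are near-identical copies, so their reads may have been divided among them uncertainly. Krtap13, at 13042, 6716 and 13392 against 5601, 3870.0 and 5057, was the 1 separated gene of the 15 kept in the hard keratin list, whose median was -0.11 (0.03 with equal totals).

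**Figure D2:**
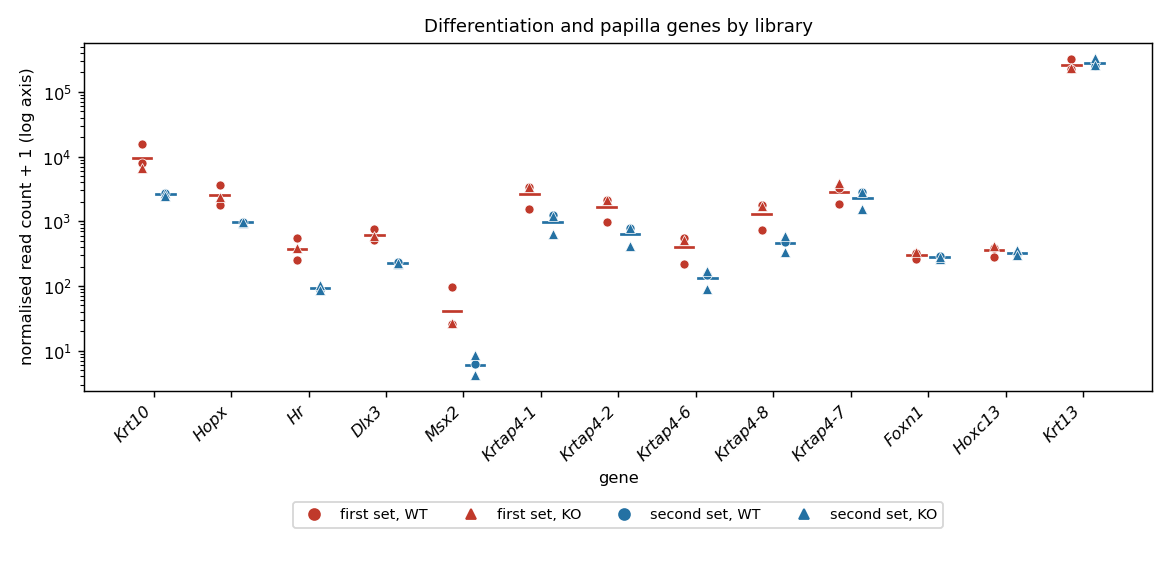
Normalised read count + 1 (log axis) of differentiation and papilla genes, with libraries, colours and bars as in the plot of the highest and lowest genes. Krt10, Hopx, Hr, Dlx3, Msx2 and 4 Krtap4 genes sit higher in the first set, while Krtap4-7, Foxn1, Hoxc13 and Krt13 overlap.

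Cell junction and signalling genes were among the separated genes that the lists held in small numbers. Of 21 WNT pathway genes 2 were separated (2.74% of all genes were separated higher), the receptor Fzd1 (74.5, 24.4 and 31.0 against 3.92, 7.58 and 7.62, 2.47) and the feedback inhibitor Axin2 (15.1, 15.7 and 16.4 against 6.53, 10.8 and 3.81, 1.15), with values near the read floor in the second set. Fzd6, a receptor of planar polarity, was at 243, 199 and 153 against 106, 70.4 and 78.1. Of 9 Fzd genes 8 were higher in the first set (5424 of 10987 over all genes, median 0.37), although only Fzd1 and Fzd6 were separated. Fzd1 reached the filter value of 10 only in the first set, and Fzd6 and the family were chosen after their values were seen. In the Notch list, 1 of 12 genes was separated, the target Hes1 (686, 556 and 447 against 247, 278 and 239, 1.12), while the ligand Jag1 (348, 292 and 251 against 212, 213 and 196) lay entirely higher by 0.51 and the list median was -0.08 (0.05 with equal totals). Hes1 was not separated after the GC adjustment (0.95) or without WT 1. Of 20 genes of the TGF-β and BMP list 0 were separated, with a median of 0.19. Connexin 43 (Gja1, 2566, 1825 and 1250.5 against 1148, 767 and 712), cingulin (Cgn, 713, 472 and 460.2 against 240.3, 263 and 247) and the claudins Cldn17 (1.36) and Cldn23 (1.22) were higher in the first set, as was Prkci (892, 489 and 536 against 188, 160.3 and 180.1), the polarity kinase of the apical junction. Gja1 differed by 1.07 and was highest in WT 1 and lowest in KO 3. Of 7 claudins kept 2 were separated higher and 5 were higher at all (median 0.61), while Cldn8 (-0.50) and Cldn4 were lower. Over all genes 5424 of 10987 were higher. These junction genes and the claudin family were chosen after their values were seen, so they do not describe junction genes as a whole.

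Of the secretory pathway, Xbp1 and 7 other genes, several of them known as its targets, were separated higher in the first set. Over the 5 ER lists, 103 genes were kept, 8 were separated higher (7.77%, against 2.74% of all genes) and 0 were separated lower. Of the 103, 23 lay entirely higher and 14 entirely lower (median 0.03), against 12.1% and 12.3% of all genes. Of the 8, Syvn1 and Sec61g reached the filter value of 10 only in the first set, where they were high. Such a share of separated genes was not particular to the ER, with 4 of 42 nuclear respiratory chain genes and 2 of 21 WNT genes separated higher. The TGF-β and BMP list had 0 of 20. Xbp1 was at 449, 346 and 369 against 162, 194 and 199, with tight sets and a difference of 1.06 (SD 0.18). Ern1, which encodes Ire1α, was at 102, 105 and 117 against 77.1, 78.0 and 123, overlapped and differed by 0.25. The tags come from the 3′ end and the labels do not give the deleted exons, so this count does not check the deletion. The first-set value of Xbp1 was high in KO 2 as in both WT libraries, and Xbp1 was no longer separated without WT 1 or without WT 3.

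Syvn1, the ubiquitin ligase of ER-associated degradation, was at 52.8, 29.7 and 34.5 against 7.84, 6.50 and 8.58, the largest difference of the degradation list (2.18, SD 0.32), and all 3 second-set values were within 6.50 to 8.58. Ube2g2, its ubiquitin-conjugating enzyme, was at 164, 154 and 125 against 77.1, 72.6 and 68.6 (1.00), at the limit of the rule. Of the folding list Manf, a secreted factor induced by ER stress, was at 367, 412 and 346 against 146, 137 and 213, Fkbp2, an ER prolyl isomerase, at 137, 116 and 98.2 against 60.1, 42.3 and 50.5 and Dnajb9, a co-chaperone of Hspa5, at 63.1, 55.8 and 39.6 against 30.0, 26.0 and 21.0. Their differences were 1.20, 1.18 and 1.00, and that of Dnajb9 was 0.89 after the GC adjustment. Of the translocation list the channel subunits Sec61b and Sec61g were at 260.1, 286 and 160.3 against 128, 60.7 and 74.3 and 44.3, 20.1 and 15.5 against 2.61, 2.17 and 6.67, the latter near the read floor in the second set. Sec13, a coat protein of ER vesicles, was just outside the limit (171, 149 and 178 against 94.0, 78.0 and 79.1, 0.98). The degradation and transport lists behind these genes did not rise as wholes. Of 18 degradation genes 4 lay entirely higher and 4 entirely lower (median -0.01). Of 30 ER-Golgi transport genes 3 lay entirely higher and 6 entirely lower (median -0.07). The translocation list was higher across the first set, with 7 of 22 genes entirely higher and 2 entirely lower (median 0.21). Its mean deviation was 0.27, 0.17 and 0.07 against 0.01, -0.27 and -0.24. Of 12 ER stress sensors and transducers 3 lay entirely higher and 0 entirely lower (median 0.14). The shares of all genes were 12.1% entirely higher and 12.3% entirely lower.

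Hspa5, Hsp90b1 and Calr, abundant ER chaperones named after their values were seen, were not higher in the first set. Hspa5 (BiP) was at 3701, 4497 and 5279 against 4174, 5762 and 9847, Hsp90b1 at 385, 417 and 419.7 against 381, 397 and 756 and Calr at 2478, 2307 and 2530.3 against 2592, 2968 and 3329. Calr lay entirely lower in the first set (difference -0.27), and the other two overlapped. The 3 chaperones were highest in KO 3, of the second set. In the whole folding list (22 genes) 6 genes lay entirely higher, among them Txndc5 (0.87) and Erp44 (0.69), and 2 entirely lower, Calr and Canx (-0.35). For all genes these shares were 12.1% and 12.3%.

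**Figure D3:**
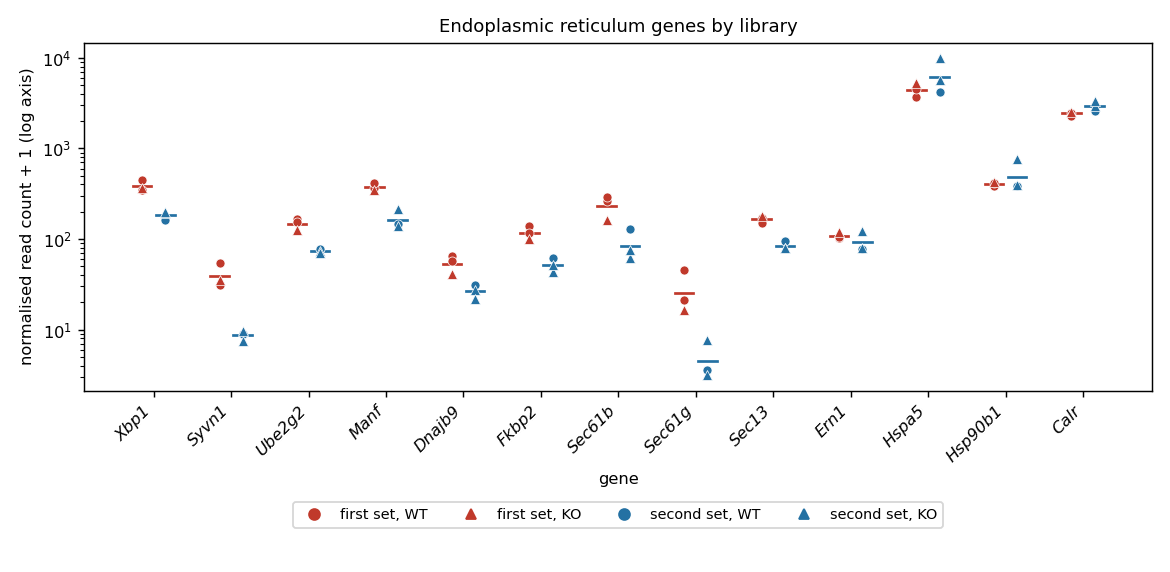
Normalised read count + 1 (log axis) of ER genes, with libraries, colours and bars as in the plot of the highest and lowest genes. The 3 first-set libraries lie above the second set for Xbp1, Syvn1, Ube2g2, Manf, Dnajb9, Fkbp2, Sec61b, Sec61g and Sec13, and not for Ern1, Hspa5, Hsp90b1 and Calr.

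The promoters of 3 of these genes are shown because they differ in the letters of the ER stress element, which ER stress factors are known to bind (RefSeq, GRCm38.p6, 250 bases before to 50 after the start, 5′ to 3′, and 6 of the 8 separated ER genes matched). Capitals mark the full ER stress element, CCAAT and CCACG with 9 bases between them, in Syvn1 (chr19:6046326-6046625, plus strand) and its shorter core CCACG in Dnajb9 (chr12:44210019-44210318, minus strand), both searched on both strands, and Xbp1 (chr11:5520391-5520690, plus strand) has neither in this window.
Syvn1: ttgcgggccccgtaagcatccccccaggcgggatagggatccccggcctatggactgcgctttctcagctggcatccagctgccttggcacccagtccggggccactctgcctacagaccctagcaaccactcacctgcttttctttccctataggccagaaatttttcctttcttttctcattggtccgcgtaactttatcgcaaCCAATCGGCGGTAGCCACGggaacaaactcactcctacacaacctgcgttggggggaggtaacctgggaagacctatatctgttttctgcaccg
Dnajb9: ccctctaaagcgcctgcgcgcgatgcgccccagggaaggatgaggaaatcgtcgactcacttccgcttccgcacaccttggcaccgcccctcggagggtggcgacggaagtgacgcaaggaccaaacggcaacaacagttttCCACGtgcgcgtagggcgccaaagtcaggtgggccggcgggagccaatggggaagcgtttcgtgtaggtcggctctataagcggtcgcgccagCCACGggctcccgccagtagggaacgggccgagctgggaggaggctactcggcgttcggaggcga
Xbp1: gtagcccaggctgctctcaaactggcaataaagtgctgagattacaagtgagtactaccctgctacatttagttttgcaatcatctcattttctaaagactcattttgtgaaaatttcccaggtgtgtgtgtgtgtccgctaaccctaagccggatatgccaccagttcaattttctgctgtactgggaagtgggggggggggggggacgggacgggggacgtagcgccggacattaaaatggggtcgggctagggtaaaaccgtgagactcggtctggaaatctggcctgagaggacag
The full element was in 35 of 27025 promoters (0.130%), and the core, which is part of it, in 32.7%. Only 1 of the 6 genes matched, Syvn1, had the full element, so the sequence in this window was not common to the group.

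Some genes of translation and energy metabolism were also separated. Of 73 ribosomal protein genes 4 were separated higher, Rpl15 (224, 96.9 and 145 against 57.5, 23.8 and 29.5), Rpl7a (1333, 975 and 978 against 465, 394 and 379), Rps23 and Rps6, with 10 entirely higher and 8 entirely lower and a median of -0.09, which was 0.05 with equal totals. Without WT 3 this median was 0.14 with 25 entirely higher, and without KO 1 it was -0.21 with 24 entirely lower. Of 42 nuclear respiratory chain genes 4 were separated higher, Ndufa1 (451, 326 and 327 against 172, 99.7 and 111), Cox5a, Atp5j and Ndufb8, with 8 entirely higher and 11 entirely lower (median -0.15). Without WT 3, 15 of them lay entirely higher (median -0.03), and after an adjustment for GC content described below 4 lay entirely lower (-0.04). Over all genes 2.74% were separated higher, 12.1% lay entirely higher and 12.3% entirely lower, so the shares without overlap of the ribosomal proteins were near the background. The counts without a library rise by construction and do not compare with these shares. Cox7c (1175, 976 and 1013 against 512, 256 and 360.2), Atp5md (1.92) and the actin-binding Tmsb4x (1863, 2564 and 1628 against 653, 441 and 496, 1.92) were higher in the first set. The 2 mitochondrial ribosomal RNAs were the only mitochondrially encoded genes of 9 without overlap, with mt-Rnr2 at 169189, 125569 and 146703 against 99619, 81536 and 110859 (0.60).

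Part of these counts came from genes whose values were low for what they encode. Gapdh, among the most abundant mRNAs of most cells, was at 45.2, 47.1 and 58.6 against 19.6, 26.0 and 21.0, Ppia at 131, 57.6 and 61.2 against 34.0, 21.7 and 40.0 and Pfn1 at 81.1, 33.2 and 64.6 against 3.92, 13.0 and 8.58, while Actb was at 16800.0, 15878 and 19037 against 17665, 27021 and 20234. Cox4i1, a subunit of the respiratory chain, was listed at 0 in every library. The part of such low values in the result was not tested. For Cox5a and Ndufb6 (82.9, 47.1 and 74.1 against 13.1, 4.33 and 7.62), 89.7% and 85.7% of the last 300 bases lie under an exon of another gene, and the strand setting of the counting is not given in the sources used here. Genes overlapped over at least 50% of their end made up 5.98% of the 301 separated higher genes and 4.84% of all genes.

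The lower genes of the first set were led by Sfn among genes of high expression. Sfn (14-3-3σ, a keratinocyte and p53 target) was at 6579, 7822 and 10662 against 20718, 15285 and 20835, a difference of -1.20 (SD 0.31). Cyp26b1, an enzyme that degrades retinoic acid, was at 459, 439.8 and 519 against 943, 934 and 1164, with both sets tight (-1.10, SD 0.15). The receptor tyrosine kinase Ephb3 (418, 485 and 440.4 against 1020.0, 782 and 936), the small heat shock protein Hspb8 (1910.3, 2397 and 2309.7 against 5071, 3322 and 5516) and the IL-17 receptor Il17ra (41.5, 77.7 and 51.7 against 109.7, 107 and 129) were also lower. Hspb8 stood against Hspa1b (421, 398 and 289 against 146, 208 and 181), the inducible HSP70, which was 1.04 higher in the first set, and 6 of the 23 chaperone genes lay entirely lower and 3 entirely higher (12.3% and 12.1% of all genes). After the GC adjustment the differences of Sfn (-0.97), Cyp26b1 (-0.87), Hspb8 (-0.93) and Hspa1b (0.93) were under the limit of 1, as were Cyp26b1 (-0.96) and Hspb8 (-0.91) with equal totals. The adjustment left 4 chaperone genes entirely lower. Without WT 3, 12 of the chaperone genes lay entirely lower, a count that rises by construction with fewer libraries. Tuba1c (-1.11), Btbd19 (-1.07), Mars1 (-1.04), Ap2s1 (-1.02) and Manbal (-1.02) completed the rule's lower genes that are not from muscle.

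The ribosome biogenesis, proteasome and S phase lists had medians below 0, made of small differences. The ribosome biogenesis list (28 genes kept) had a median of -0.53, with 26 of 28 lower. Of these 11 lay entirely lower, and 1 gene was separated higher, the snoRNP protein Gar1 (138, 109 and 169.8 against 23.5, 63.9 and 34.3). Npm1 (nucleophosmin) was at 678, 704 and 736 against 1041, 1139 and 1086 (-0.62) and Nop56 at 97.1, 88.1 and 116 against 120.2, 161 and 137 (-0.47). The proteasome list (32 genes) had a median of -0.18, 10 entirely lower and 4 entirely higher, with Psmc1 at 823, 829.8 and 984 against 1225, 1433 and 1299 (-0.59), Psma1 entirely higher (0.32) and Psma5 separated higher (1.56). The S phase list (25 genes) had a median of -0.39 and 5 entirely lower, such as Rfc2 (-0.39), and the mitosis list (24 genes) had a median of 0.08 with 2 genes entirely higher and 1 entirely lower. The mitosis median was -0.22 without WT 2, and without KO 2 it was 0.31 with 11 genes entirely higher. Of all genes 12.1% lay entirely higher and 12.3% entirely lower. Without KO 1 the S phase median was -0.12 and the biogenesis median -0.31, and without WT 3, 24 of the 28 biogenesis genes and 13 of the 25 S phase genes lay entirely lower. Such counts without a library rise by construction and do not compare with the shares of all genes above.

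The skeletal muscle list had the lowest median of the lists with at least 5 genes kept, with KO 1 far above the other libraries. All 14 muscle genes kept were lower in the first set (median -1.66), but 2 were separated, Mylpf (18.8, 45.4 and 15.5 against 54.9, 210.2 and 55.3) and Tnni2 (35.8, 52.4 and 22.4 against 58.8, 268 and 90.5), and Ckm, the muscle creatine kinase, was at 12.3, 27.1 and 25.9 against 19.6, 187 and 33.4. Over all genes 5563 of 10987 were lower in the first set and 0.464% were separated lower. The summed values of the list were 1041, 1373 and 1228 in the first set and 1288, 5787 and 1800.2 in the second, so that KO 1 stood apart and WT 3 and KO 3 were near the first set. Without KO 1 the median was -0.76, and 11 of the 14 were separated without WT 3 and 8 without WT 2. Over all genes 138 and 120 of 10987 were separated lower without these libraries. Acta1 and Tnnc2 were listed at 0 in all 6 libraries. The fibroblast list (6 genes, summed value 431 to 1992 in the first set and 874 to 2191 in the second) had KO 1 at a mean deviation of 1.47, with Col1a1 at 9.42, 12.2 and 3.45 against 10.4, 189.6 and 14.3. Dcn, of the same list, was at 1658, 1329 and 195 against 1856, 530 and 544, so that KO 1 lay below every WT library. It passed the test of KO against WT (difference -2.06, SE 0.35, limma adjusted p = 0.0152). The fibroblast genes thus did not all run the same way in KO 1. In a tissue of mixed cells, a lower share of a cell type and less RNA per cell cannot be told apart. The erythrocyte list (4 genes) had KO 1 at 2.51 and KO 2 at -2.61, so it did not follow the sets either.

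The interferon and p53 lists as wholes ran with genotype and not with the sets. The interferon list (11 genes) had a median of 1.17, and its mean deviation was 0.08, 3.08 and -1.13 in the first set against 1.07, -1.56 and -1.54 in the second, with all 3 WT above all 3 KO. Without WT 2 the median was -0.09. Of the 11 genes 1 was separated higher, Stat2 (2.74% of all genes), so this gene did follow the sets. Isg15, at 106, 1508 and 8.62 against 166, 6.50 and 4.76, was low in all 3 KO libraries and higher in all 3 WT, and passed the test of KO against WT (difference -5.33, SE 0.77, limma adjusted p = 0.00737). The p53 list (19 genes) had a median of -0.54 with 0 separated, and its mean deviation was -0.61, -0.79 and 0.85 in the first set against -0.60, 0.65 and 0.50 in the second, with all 3 KO above all 3 WT. The stress keratin list (19 genes, median -0.40) was higher in KO 2 (0.38) than in the other first-set libraries (-0.54 and -0.39), and 9 of its genes lay entirely lower without KO 2, against 1 with it. A count without overlap rises by construction when a library is left out. Few genes of the salivary gland, taste bud, T cell and melanocyte lists were kept (4, 3, 2 and 2), none of B and plasma cells, and 0 of these genes were separated.

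**Figure D4:**
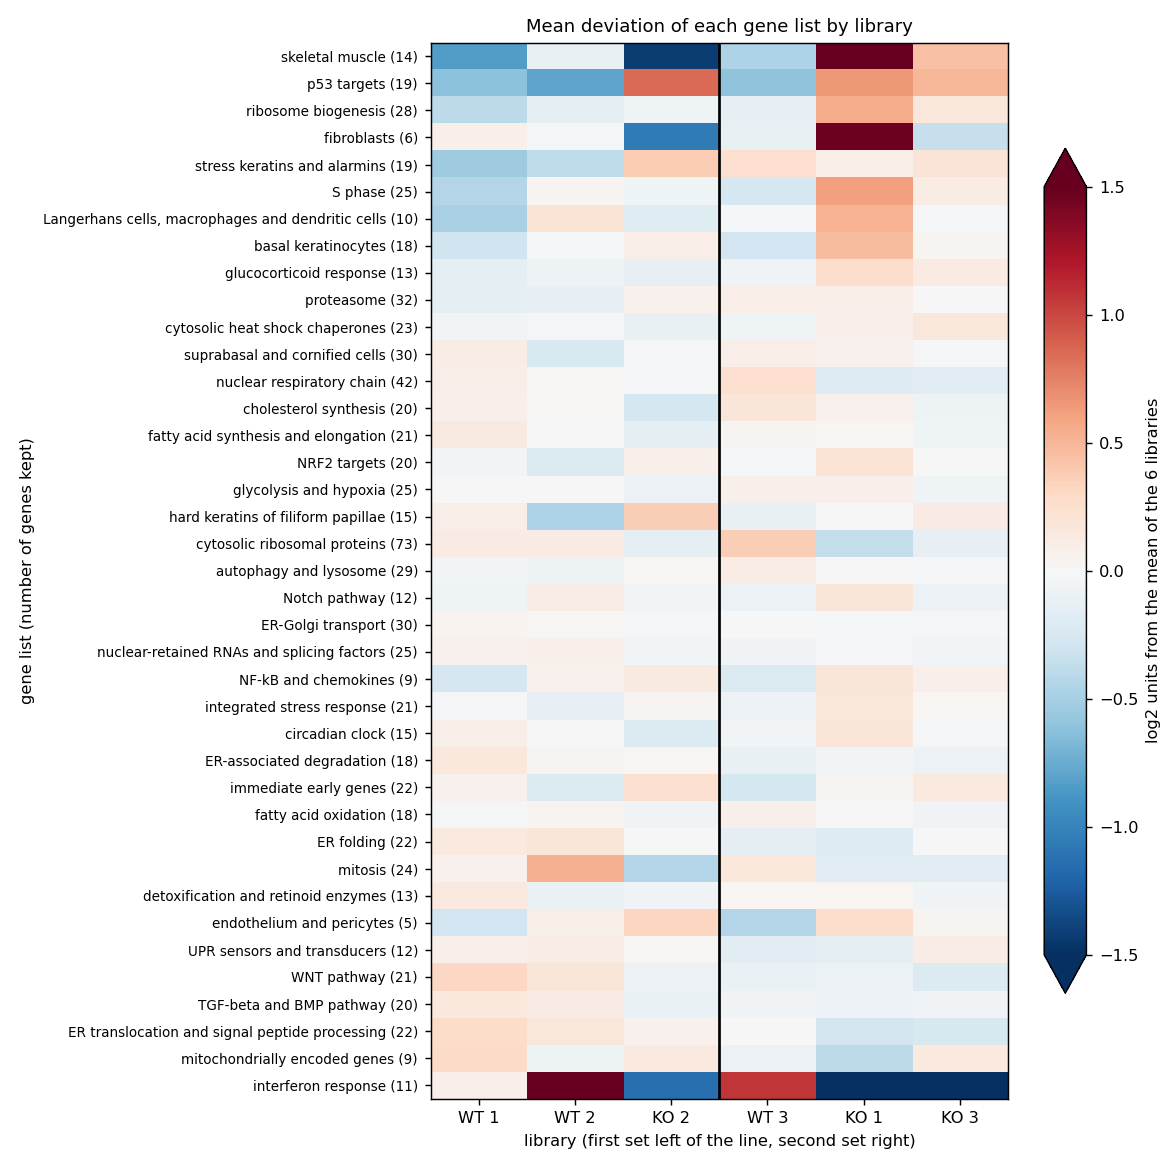
Mean deviation of each gene list from the mean of the 6 libraries (log2 units, colour scale ends at ±1.5) by library, for lists with at least 5 genes kept, sorted by their median difference between the sets. Skeletal muscle is highest in KO 1 and the interferon list splits by genotype, with WT 2 highest, while ER translocation is higher across the first set.

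The small differences across all genes varied with 2 features, though weakly. Across genes the Spearman correlation of the difference was -0.32 with GC content of the transcript end and 0.22 with gene span. The GC content of the last 300 bases of the transcript (GENCODE M21, GRCm38, 10976 of 10987 genes matched) had a median of 42.3% over all genes, 38.3% for genes entirely higher in the first set and 47.3% for those entirely lower. In the lowest decile of GC content (15.3% to 31.0%) 19.7% of genes lay entirely higher and 4.69% entirely lower, and the median difference was 0.17. In the highest decile (53.7% to 73.7%) these shares were 4.62% and 22.9% and the median difference was -0.23. Every library of the first set lay above 0 in the lowest decile (0.05 to 0.11) and below it in the highest (-0.13 to -0.10), and every library of the second set did the reverse.

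Gene span also differed between the higher and the lower genes. Genes over 200 kb made up 10.4% of the genes entirely higher in the first set, 0.815% of those entirely lower and 5.90% of all, and the medians were 34.0, 15.2 and 27.3 kb. Ntm (968 kb), Trhde (403 kb) and Pde1c (499 kb) were among the long genes. The 301 separated higher genes were not longer than the rest as a group (median 19.2 kb), although 11.6% spanned over 200 kb. Their median GC content was 39.7%, and that of the 51 lower genes had quartiles of 46.5% and 54.7%. Subtracting the median of each GC decile in each library (an adjustment chosen after seeing the data) left 310 genes separated higher (2.82%) and 32 lower (0.292%), of which 271 and 24 were those counted before. The part of GC content and span in the results on single genes was otherwise not tested.

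**Figure D5:**
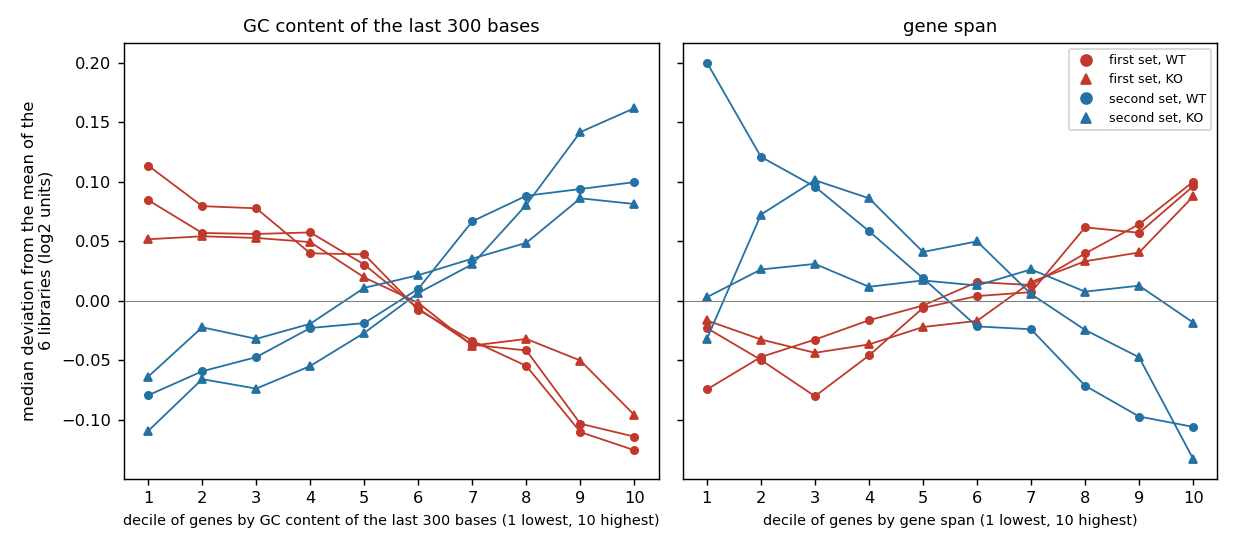
Median deviation from the mean of the 6 libraries (log2 units) of the genes of each decile by GC content of the last 300 bases (left) and by gene span (right), 1 line per library with circles for WT and triangles for KO. The red lines of the first set and the blue lines of the second cross near the middle deciles of GC content, and in the highest decile of span the first set lies at 0.09 to 0.10 and the second below 0.

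The separated genes were spread over the genome. They were on 19 autosomes, X and Y, and the share of separated higher genes on chromosome 1 was 9.30%, against 5.92% of all genes kept. Just inside the limit of the rule lay Dnajb9 (1.00), Ube2g2 (1.00) and 1700084E18Rik (-1.001), and just outside it Zfp605 (0.998), Lmntd1 (0.997) and Cnnm3 (-0.997).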

How the data were processed

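The authors deposited a table of normalised read counts per gene, a signal on a linear scale (per the file headers). The submitters' processing notes name FastQC, STAR, featureCounts and DESeq2 and no versions. The build, annotation and strand setting were not given in the sources used here. All values (100%) were whole multiples, within 0.01 read, of 1 step per library, so whole reads were recovered. Rows without a symbol (3192) held 0.0768% to 0.119% of the values and were kept.

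Values were transformed to log2(value + 1), a scale that shrinks differences at low values. Genes reaching 10 in 3 or more libraries were kept. A gene could pass this filter through the first set alone, as Syvn1, Sec61g, Fzd1, Ndufb8, Msx2, Krt222 and Cdh18 did. The genotypes were compared by limma 3.58.1 with its trend option (Benjamini-Hochberg, 0.05, two-sided, R 4.3.3), and on recovered reads by edgeR 4.0.16 (190 genes) and DESeq2 1.42.0 (368 genes). The fits were tested on simulated data. With 3 mice against 3, the smallest p of an exact permutation test is 0.1, and none was run.

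The sets, the 49 gene lists and the rules were chosen with earlier results of these data known. Named genes were the 12 highest and 12 lowest separated genes with a mean of at least 50, leaving out predicted genes, then up to 4 separated genes of each list with at least 2 separated members, the most different gene of other lists discussed, Ern1 and Xbp1. Other names (Krt10, Krtap, Hr, junction and chaperone genes, for example) were chosen after their values were seen. Same-numbered WT and KO libraries did not deviate together from their genotype means, so replicate numbers were not used as pairs. GC content and span came from GENCODE M21 (GRCm38), matched by gene identifier. Alternatives covered pseudocounts, filters, scalings, the limit and leaving out each library.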

Additional observations from a re-analysis of the deposited data

How the results depend on the processing

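The separated counts depended on the settings. With a pseudocount of 10, 200 genes were higher and 10 lower; with no filter 600 and 267; with a filter at 50, 136 and 16; with a limit of 1.5-fold 702 and 469; with equal totals 408 and 18. After the GC adjustment, added after seeing the data, 32 were lower. Without overlap, equal totals gave 2001 higher and 615 lower. TMM factors, quantile normalisation and a pseudocount of 0.5 kept all these counts within 1.5 times. Leaving out each library in turn gave 281 to 400 separated higher, 66 to 209 separated lower (209 without KO 2, 138 without WT 3, 120 without WT 2, 80 without KO 3), 1662 to 2009 entirely higher and 1709 to 2107 entirely lower. Counts without overlap rise there by construction, since fewer libraries have to be ordered.

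Of the list medians, 516 of the alternative values moved by less than the spread between libraries of a set, 59 moved by more, and 10 changed sign from a value at least as large as that spread. Medians near 0 changed sign more often, 14 of 39 with equal totals, 7 after the GC adjustment and 4 to 7 without a library. With equal totals the larger ones were ER-Golgi transport (0.0618), fatty acid synthesis (0.0138), glycolysis and hypoxia (0.0116) and autophagy and lysosome (0.0462, and 6.4e-04 after the GC adjustment). Leaving out each library gave -0.0602 to 0.0123 for ER-Golgi transport, -0.156 to 0.0615 for glycolysis and hypoxia, -0.126 to 0.0189 for autophagy and lysosome and -0.0767 to 0.193 for detoxification. The cause was not tested. Of the named genes' alternative values 1887 moved by less than the spread, 33 by more, and 0 of those of the 77 separated genes changed sign.

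For KO against WT, 134 genes were higher and 64 lower. DESeq2 called 216 and 152, and leaving out each library gave 48 to 129 higher and 16 to 57 lower. The correlations of same-numbered WT and KO deviations were -0.25, 0.03 and 0.28, so the numbers do not pair the libraries, and the fit with the replicate block called 117 higher and 61 lower. Depth limits genes near 3 reads, such as Ldb1 and Sec61g in the second set.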
